A study of Mus musculus with 12 samples.

Results

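Sycp1, Sycp3 and Hormad1 are genes of the meiotic chromosome, and the methylation of DNA around their transcript starts was examined in mouse embryonic stem cells (ESCs), embryos and brain. Each promoter was taken as the window from 1000 bases upstream to 500 bases downstream of the start on mouse build mm9, the build of the deposited values. Within a window, every cytosine at 20% methylation or more in any of the 12 libraries was used, and a promoter's level is the mean over those cytosines. The members are named genes, chosen with earlier results of these data known, and they are 3 of 6622 promoters that could be placed on mm9 with at least 6 such cytosines.

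In meiotic prophase each pair of sister chromatids is arranged in loops along a protein axis, and the axes of paired homologous chromosomes are zipped together by the synaptonemal complex. SYCP3 is a filament-forming protein of the axis, and HORMAD1 is an axis protein that promotes double-strand breaks and monitors pairing before it is stripped from synapsed axes. SYCP1 is the transverse filament that bridges the gap between the axes, so it belongs to the central region and not to the axis itself. In mice, genes of this kind are silent in somatic cells, and promoter methylation laid down around implantation is a well-known feature of many of them. Mouse ESCs derive from cells that precede that step.

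The tissue libraries were bimaternal (BM) and wild-type (WT) adult brain, BM brain at E19.5 (day of embryonic development), and 3 whole embryos at E15.5 that were BM, bipaternal (BP) and WT. BM embryos were made by placing a parthenogenetic haploid ESC (phESC) in a mature oocyte. BP embryos were made from an androgenetic haploid ESC (ahESC) and a sperm, placed together in an oocyte whose own nucleus had been taken out. All 4 BM and BP libraries carry the label DMR-KO, a knockout of differentially methylated regions, and the labels do not say which regions. The 6 ESC libraries, all labelled WT, were ahESCs, phESCs and diploid ESCs, each at late and at early passage. A phESC carries a single genome of oocyte origin and an ahESC a single genome of sperm origin. The labels give neither passage numbers nor the number of lines or animals behind a library.

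The assay was RRBS (reduced representation bisulfite sequencing), in which DNA is cut at CCGG by the enzyme MspI and short fragments are read after bisulfite treatment. Each group is 1 library, so no group has a replicate error, and a difference between a pair of libraries has no test. Such a difference was taken over the cytosines with a value in both libraries and is called at 25 percentage points. The libraries held values at between 3773871 and 5903648 cytosines. The number of reads behind each percentage is unknown. Late ahESCs, late phESCs and both adult brains form a second set of libraries in the file, since these 4 alone hold values on the unplaced part of chromosome Y. The labels do not name this split as a batch, and it is given below beside the comparisons that cross it. In DNA from many cells, a level of 50% cannot be told apart from full methylation in 1 of every 2 cells.

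The 250 bases upstream of the RefSeq start of each gene are shown because the values of Sycp1 and Hormad1 fall partly in them. Capitals mark CpG, the form of cytosine that carries nearly all methylation in mammals.
Sycp1, RefSeq GRCm38.p6, chr3:102936101-102936350, minus strand: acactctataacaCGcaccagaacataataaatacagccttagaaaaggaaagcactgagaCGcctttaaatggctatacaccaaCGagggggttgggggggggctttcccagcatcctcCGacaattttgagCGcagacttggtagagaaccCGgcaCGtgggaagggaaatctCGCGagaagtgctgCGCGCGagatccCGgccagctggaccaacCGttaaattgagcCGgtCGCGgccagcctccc
Sycp3, RefSeq GRCm38.p6, chr10:88459337-88459586, plus strand: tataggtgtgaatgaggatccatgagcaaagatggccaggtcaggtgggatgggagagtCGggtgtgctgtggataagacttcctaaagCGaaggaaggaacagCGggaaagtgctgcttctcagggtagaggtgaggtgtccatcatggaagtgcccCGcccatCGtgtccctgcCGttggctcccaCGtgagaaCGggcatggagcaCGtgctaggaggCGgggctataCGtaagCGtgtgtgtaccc
Hormad1, RefSeq GRCm38.p6, chr3:95559427-95559676, plus strand: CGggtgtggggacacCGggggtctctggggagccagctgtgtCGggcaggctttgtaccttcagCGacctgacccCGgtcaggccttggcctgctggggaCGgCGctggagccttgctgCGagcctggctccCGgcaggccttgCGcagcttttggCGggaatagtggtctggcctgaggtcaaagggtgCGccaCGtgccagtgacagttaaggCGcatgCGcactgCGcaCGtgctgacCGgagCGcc
These stretches hold 17 CpGs for Sycp1, 12 for Sycp3 and 19 for Hormad1. The file lists 39 positions in the Sycp1 stretch and 90 in that of Hormad1, with both strands counted. That is more than the CpGs of both strands can give, so listed positions include cytosines outside CpG, in GC. In the Sycp3 stretch it lists 0, so no value below describes the upstream DNA printed for Sycp3.

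Each stretch holds the E-box CACGTG, a binding motif of the MAX and MGA factors, on a motif search chosen after the sequences were seen. Counted in bases from the RefSeq start, it begins at -94 in Sycp1, at -64 and -43 in Sycp3, and at -57 and -20 in Hormad1. Of 32851 RefSeq promoters of 300 bases, 7.15% hold CACGTG. The E2F-type motif GCGGGAA begins at -147 in Sycp3 and at -95 in Hormad1 and is held by 4.6% of the promoters on either strand. None of these motifs overlaps another, and each match describes letters and not a bound site.

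The windows were sampled at different places. Sycp1 lies on the minus strand at chr3:102739523-102741023 in mm9, and 60 of its 116 listed positions reached 20%, most of them from 100 bases upstream to 284 bases downstream of the start. Sycp3 lies on the plus strand at chr10:87921314-87922814, and 45 of 105 listed positions reached 20%. All but 1 of these lie downstream of the Sycp3 start, so its level is that of the first part of the transcribed region. Hormad1 lies on the plus strand at chr3:95362599-95364099, and 51 of 129 listed positions reached 20%, from 450 bases upstream to 29 bases downstream. Of the positions that reached 20%, 8 in Sycp1, 20 in Sycp3 and 23 in Hormad1 were read in all 12 libraries.

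All 3 promoters were heavily methylated in the embryos and brains and lightly methylated in the ESCs. For Sycp1 the levels were 89.3% in the BM adult brain, 87.7% in the WT adult brain, 91.7% in the BM E19.5 brain, 92.7% in the BM embryo, 88.7% in the BP embryo and 90.8% in the WT embryo. In the ESCs, Sycp1 stood at 17.5% in late and 21.0% in early ahESCs, 5.82% in late and 25.5% in early phESCs, and 18.6% in late and 25.7% in early diploid cells. The lowest of these, that of late phESCs, rests on 16 cytosines, all from 150 to 300 bases downstream of the start. The 6 tissue libraries lie within a span of 5 points, far above the highest ESC library.

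Hormad1 levels were 79.0% in the BM adult brain, 79.6% in the WT adult brain, 87.4% in the BM E19.5 brain, 82.0% in the BM embryo, 80.7% in the BP embryo and 82.9% in the WT embryo. Its ESC levels were 17.5% in late and 31.4% in early ahESCs, 9.35% in late and 22.2% in early phESCs, and 11.5% in late and 37.5% in early diploid cells. As for Sycp1, the tissues are close together and the ESC libraries spread more widely, with late passage below early passage in each cell type.

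Sycp3 was the member with the widest spread among tissues. It had 52.2% in the BM adult brain, 59.7% in the WT adult brain, 82.1% in the BM E19.5 brain, 78.3% in the BM embryo, 85.0% in the BP embryo and 70.0% in the WT embryo. In the ESCs it had 16.9% in late and 34.1% in early ahESCs, 15.8% in late and 24.4% in early phESCs, and 11.1% in late and 38.0% in early diploid cells. Both adult brains lie below every other tissue library, and both still lie above every ESC library.

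**Figure D1:**
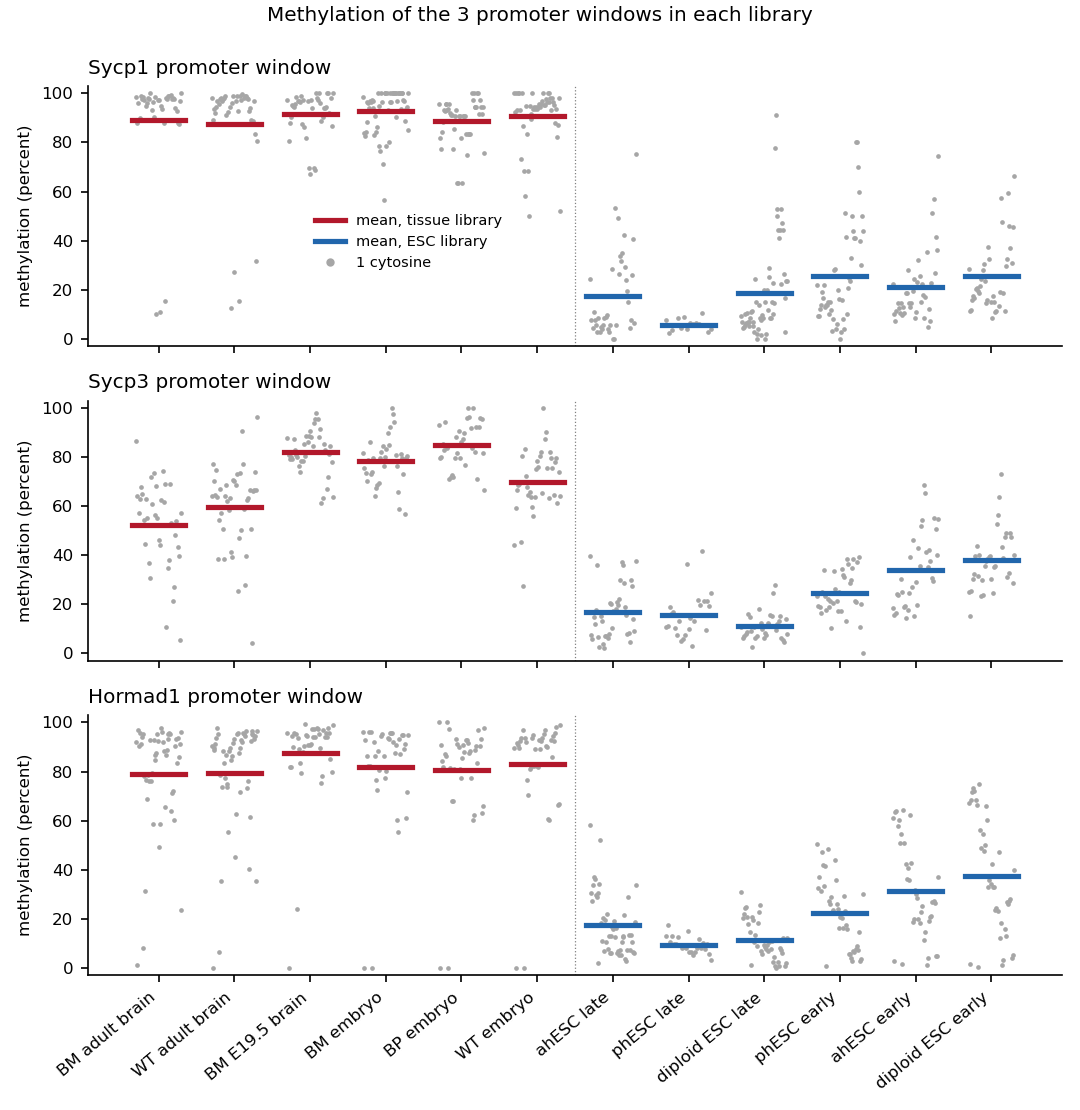
Methylation in percent (vertical axis) of the Sycp1, Sycp3 and Hormad1 windows in each library, with the 6 tissue libraries left of the 6 ESC libraries. Grey points are single cytosines, spread sideways for display, and bars are their means; the tissue means lie between 52.2% and 92.7% and the ESC means between 5.82% and 38.0%.

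Tissue against ESC was the grouping tested, with 6 libraries on each side. Sycp1 averaged 90.2% ± 1.91 in tissue libraries and 19.0% ± 7.30 in ESC libraries (SD, n = 6 each), a difference of 71.1 points. Hormad1 averaged 81.9% ± 3.07 in tissue libraries and 21.6% ± 11.1 in ESC libraries (SD, n = 6 each), a difference of 60.4 points. Sycp3 averaged 71.2% ± 13.1 in tissue libraries and 23.4% ± 10.8 in ESC libraries (SD, n = 6 each), a difference of 47.8 points. In an exact two-sided permutation test of the 6 tissue against the 6 ESC libraries, each gene gave p = 0.00216, the smallest this design allows, and an adjusted p of 0.00785 after Benjamini-Hochberg correction over 1215 promoters. Without the 20% filter, listed positions outside CpG also enter the means, and the correction runs over 12322 promoters. The exact permutation p was then the same, but the differences were 40.2 points at Sycp1, 21.7 at Sycp3 and 24.6 at Hormad1. The adjusted p was 0.0512, which ends the call. The members were chosen with earlier results of these data known, and the 20% filter keeps cytosines that are high in tissue libraries alone. The p values are therefore a description of these libraries and not independent support.

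The 12 libraries differ in genotype, passage and stage, so they are not replicates of 1 condition and the test speaks of these libraries. Higher tissue levels were common: 573 of the 1215 promoters passed upward, 47.2%, and 30 passed downward, 2.47%. The members' 3 passes are to be read against that share. For all 3 members, the lowest tissue library was above the highest ESC library, a separation seen in 26.7% of promoters. The gap between those libraries was 62.0 points for Sycp1, 41.5 for Hormad1 and 14.2 for Sycp3.

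The median difference over all 1215 promoters was 19.48 points, and 32.7% of promoters were higher in tissue by 25 points or more. The 20% filter keeps positions that are high in tissue libraries alone, which raises such differences at the members and at other promoters. It also drops listed positions outside CpG, and 0 of the members' kept positions of known sequence lie outside CpG. The part of each in the smaller differences without the filter was not tested.

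**Figure D2:**
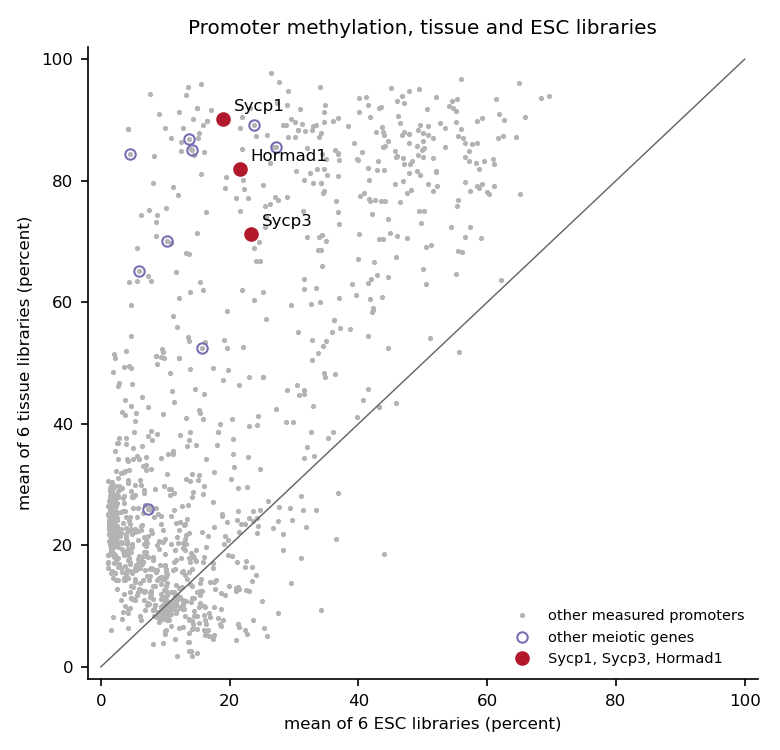
Mean methylation of the 6 tissue libraries (vertical axis, percent) against the mean of the 6 ESC libraries (horizontal axis, percent) for 1215 promoters, with the line of equality. Sycp1, Sycp3 and Hormad1 are filled circles and the other listed meiotic genes open circles; all lie above the line, with Sycp1 at 90.2% in tissue and 19.0% in ESC libraries.

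The difference was present within each library set. Within the first set, of 4 tissue and 4 ESC libraries, tissue was above ESC by 68.3 points for Sycp1, 51.9 for Sycp3 and 57.6 for Hormad1. Within the second set, of 2 and 2, it was above by 76.8, 39.6 and 65.8 points for the same genes. Neither subset passed the adjusted test. The exact permutation p was 0.0286 in the first set (adjusted p = 0.0665) and 0.333 in the second (adjusted p = 0.405), in each case the smallest that set allows.

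A single pair gives the contrast without haploid cells or the DMR-KO. In the WT embryo against early diploid ESCs, Sycp1 had 88.4% and 27.3% over 31 shared cytosines, a difference of 61.1 points. Hormad1 had 82.9% in the WT embryo and 37.5% in early diploid ESCs over 40 cytosines, a difference of 45.5 points. Sycp3 had 72.2% in the WT embryo and 36.2% in early diploid ESCs over 31 cytosines, a difference of 36.0 points. All 3 are called higher in the embryo, against 7.28% of 4051 promoters called higher and 3.06% lower. Without the 20% filter, the differences of Sycp3 and Hormad1 were 16.5 and 18.3 points, below the call.

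On the mean over shared cytosines, late-passage cells were less methylated than early-passage cells at each promoter in each ESC type. In diploid cells, late passage had 11.1% and early passage 37.9% at Sycp3, a difference of -26.9 points, with all 34 shared cytosines lower. At Hormad1, late diploid ESCs had 11.5% and early ones 37.5%, a difference of -26.0 points, with 38 of 40 cytosines lower. At Sycp1, late diploid ESCs had 10.1% and early ones 25.7% over the 40 shared cytosines, a difference of -15.6 points, with all 40 lower.

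Sycp3 and Hormad1 are called lower in late diploid ESCs and Sycp1 is not, against 19.3% of 4072 promoters called lower and 0.123% higher. Both calls lie close to 25 points. Over the cytosines read in all 12 libraries, the differences were -23.5 points for Sycp3 and -21.7 for Hormad1, and without the 20% filter -12.5 and -10.4. With the median in place of the mean, Hormad1 differed by -24.2 points.

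Among ahESCs no member passed 25 points, against 13.8% of 3720 promoters called lower and 0.188% higher. With a call at 15 points, 28.6% of these promoters were higher and 19.52% lower in late ahESCs, and the median difference was 4.70 points. Late ahESCs had 17.5% and early ahESCs 33.9% at Sycp3, a difference of -16.4 points. Hormad1 had 17.4% in late and 32.2% in early ahESCs, a difference of -14.9 points, and Sycp1 had 9.49% in late and 19.0% in early ahESCs, a difference of -9.55 points. Most cytosines moved the same way: 31 of 34 were lower at Sycp3, 36 of 39 at Hormad1 and 19 of 21 at Sycp1.

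In phESCs the differences over shared cytosines were all under 10 points. Late phESCs had 5.82% and early phESCs 12.9% at Sycp1, a difference of -7.06 points over 16 cytosines. Sycp3 had 16.0% in late and 22.5% in early phESCs, a difference of -6.48 points, and Hormad1 had 9.35% in late and 13.98% in early phESCs, a difference of -4.62 points. All 16 cytosines were lower at Sycp1 and 20 of 24 at Sycp3. At Hormad1 14 of 24 were lower and 10 higher, and its difference without the 20% filter was -1.73 points. No member was called, against 1.27% of 1264 promoters called lower and 0.158% higher. Late phESCs covered fewer of the members' cytosines, and the shared positions are those with lower levels in early cells. Over each library's own cytosines the phESC difference at Sycp1 was -19.6 points and at Hormad1 -12.9, so the cell types are not ranked by their change with passage.

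Late and early haploid libraries also belong to different sets in the file, so passage and library set cannot be told apart in ahESCs and phESCs; both diploid ESC libraries belong to the first set. All 9 differences with passage are negative. With 3 cell types as pairs, an exact sign-flip test cannot go below 0.25, and none was run.

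At early passage, the haploid lines lay below the diploid line. Early phESCs had 22.2% and early diploid ESCs 37.5% at Hormad1, a difference of -15.3 points, with 36 of 40 cytosines lower. At Sycp3, early phESCs had 25.1% and early diploid ESCs 38.0%, a difference of -12.9 points. At Sycp1 the difference was -6.03 points, with 19.7% in early phESCs and 25.7% in early diploid ESCs. No member was called, against 13.2% of 4149 promoters called lower in early phESCs and 0.265% higher.

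Early ahESCs were nearer to the diploid line, by -4.71 points at Sycp1, -3.88 at Sycp3 and -6.05 at Hormad1, and 0.313% of 4154 promoters were called lower there and 0.144% higher. Both haploid comparisons use the same diploid library. Set directly against early ahESCs, early phESCs differed by -1.32 points at Sycp1, -8.98 at Sycp3 and -9.22 at Hormad1, with 11.1% of 4039 promoters called lower and 0.198% higher.

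At late passage no member was called between the ESC types. Late ahESCs differed from late diploid ESCs by -7.02 points at Sycp1, 6.62 at Sycp3 and 5.57 at Hormad1, with 0.571% of 3856 promoters called higher and 0.0519% lower. The median over those promoters was 11.8 points, above the differences of all 3 members, and 35.9% were higher at 15 points. Over promoters with at least 10 shared cytosines the median was 5.08. Late phESCs differed from late diploid ESCs by -1.29 points at Sycp1, 5.47 at Sycp3 and 2.49 at Hormad1, with 0.325% of 1231 promoters called in each direction. These pairs also cross the library sets, and that part in them was not tested.

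No member was called between the BM or BP embryo and the WT embryo. The BM embryo had 93.1% and the WT embryo 90.3% at Sycp1, a difference of 2.79 points. The BM embryo had 82.0% and the WT embryo 82.9% at Hormad1, a difference of -0.902 points. The BM embryo had 77.2% and the WT embryo 72.0% at Sycp3, a difference of 5.13 points. Across 4035 promoters, 6.91% were called higher in the BM embryo and 0.0743% lower.

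In the BP embryo against the same WT embryo, Sycp3 differed most, with 84.4% in the BP and 72.2% in the WT embryo, a difference of 12.2 points and 28 of 31 cytosines higher. At Sycp1 the BP embryo had 88.5% and the WT embryo 89.6%, a difference of -1.09 points. At Hormad1 the BP embryo had 80.7% and the WT embryo 82.9%, a difference of -2.25 points. None reached 25 points, against 0.66% of 3184 promoters called higher and 0.785% lower.

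The adult brains of BM and WT animals were alike to within 5 points at each member. BM adult brain had 89.3% and WT adult brain 89.3% at Sycp1, a difference of 0.0474 points. Hormad1 had 79.0% in BM and 79.6% in WT adult brain, a difference of -0.600 points, and Sycp3 had 52.2% in BM and 56.7% in WT adult brain, a difference of -4.52 points. Across 5354 promoters, 0.0747% were called higher and 0% lower. Without replicates, a small difference here does not show that the brains are equal.

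Sycp3 was lower in adult than in E19.5 BM brain. BM adult brain had 52.8% and BM E19.5 brain 81.7% over 31 shared cytosines, a difference of -28.9 points, and all 31 were lower. Hormad1 had 78.6% in BM adult and 87.7% in BM E19.5 brain, a difference of -9.18 points, and Sycp1 had 88.0% in BM adult and 93.5% in BM E19.5 brain, a difference of -5.44 points. At Sycp1 14 of 21 cytosines were higher and 6 lower in the adult, and the difference was 3.82 points over cytosines read in all 12 libraries and 1.33 with the median, so its sign depends on the cytosines and the average used. Sycp3 alone of the members is called lower, against 2.79% of 2865 promoters called lower and 0.768% higher.

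The Sycp3 value lies near the call as well. It was -23.3 points over cytosines read in all 12 libraries, -24.8 with the median and -13.0 without the 20% filter. WT adult brain had 58.8% and the WT embryo 69.7% at Sycp3, a difference of -10.9 points. In that pair Sycp1 differed by -5.44 points and Hormad1 by -4.35, with more cytosines higher than lower at both (18 against 12 and 21 against 17). Over cytosines read in all 12 libraries these differences were 1.64 and 2.57 points, and without CCGG sites Hormad1 differed by 0.276. No member was called in that pair, against 0.756% of 3838 promoters called lower and 6.9% higher. Both comparisons with adult brain cross the library sets.

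**Figure D3:**
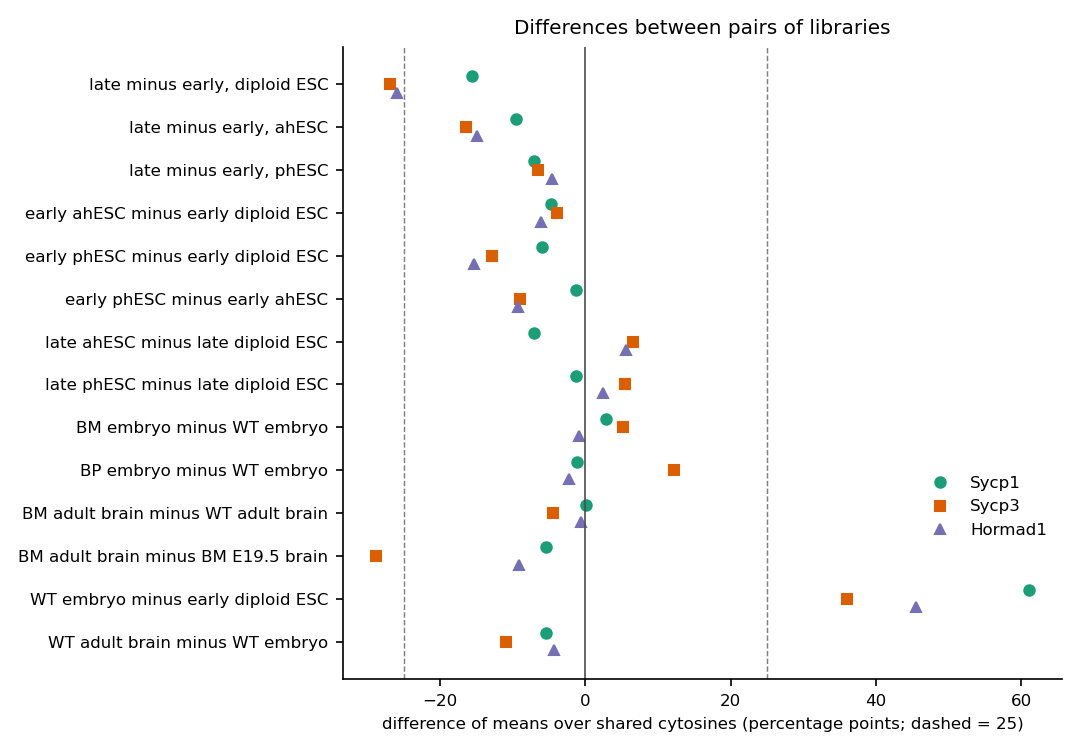
Difference of mean methylation over shared cytosines, in percentage points (horizontal axis), for each of 14 pairs of libraries (rows, named as the first library minus the second), with a symbol for each gene and dashed lines at 25 points. Passage differences lie left of 0 for all 3 genes, and the embryo against early diploid ESCs lies beyond 25 points on the right.

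Cytosines inside CCGG, the cutting site of the enzyme, had lower means than other CpGs in the adult brains at Hormad1 and Sycp1. At Hormad1, CCGG cytosines averaged 62.9% in BM adult and 62.1% in WT adult brain, while other CpGs of known sequence averaged 86.9% and 88.4%. In the BM E19.5 brain the CCGG cytosines of Hormad1 averaged 95.6% and the other CpGs 90.5%. At Sycp1, CCGG cytosines averaged 61.6% in BM adult and 66.3% in WT adult brain, beside 95.5% and 96.3% at other CpGs. The low Sycp1 means rest on the cytosines at -19 and -49 bases, with 10.8% and 15.3% in BM adult brain, while the other 3 CCGG cytosines had at least 87.8% there. On the opposite strand of the same CpGs, the cytosines at -18 and -48 bases had 97.4% and 87.8%. Late ahESCs, of the same library set as the adult brains, had 0% at -19 and 5.61% at -49 bases. Their CCGG means were 19.4% at Hormad1 and 21.2% at Sycp1, beside 11.8% and 24.4% at other CpGs. The adult and E19.5 brains belong to different library sets. Without CCGG sites, the adult minus E19.5 difference of BM brain was -4.82 points at Hormad1 and -1.35 at Sycp1, and it was -28.6 at Sycp3. The sequence is known for only 9 of the 45 Sycp3 cytosines, so CCGG sites could be left out there only in part.

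Methylation was not even along the windows of the ESCs. In the WT embryo, Hormad1 averaged 73.8% from -450 to -300 bases, 84.4% from -300 to -150 bases and 86.5% in the last 150 bases before the start. Early diploid ESCs had 56.5%, 54.8% and 24.0% in the same intervals. The embryo exceeded early diploid ESCs least in the far interval and most next to the start. The far interval holds a cytosine at -431 bases with 0% in all 3 embryos and 32.5% in early phESCs, and another at -312 bases that reached 20% in BM E19.5 brain alone, at 23.8%. Over cytosines at 50% or more in any library, a choice made for these intervals after seeing the data that leaves both out, the far interval had 92.3% in the WT embryo and 70.3% in early diploid ESCs (8 cytosines each).

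Sycp1 had its higher ESC levels upstream. The WT embryo had 95.2% in the 150 bases before the start, 95.02% in the 150 bases after it and 86.2% in the following 150 bases. In early diploid ESCs the same intervals had 43.8% (5 cytosines), 32.9% (6 cytosines) and 19.48% (28 cytosines). Late diploid ESCs had 33.5% upstream over 23 cytosines and 7.79% in the farthest interval over 28, so the mean over all cytosines of a library depends on which fragments were read. For this reason the late diploid level of 18.6% for Sycp1 given above is higher than the 10.1% over the positions shared with early diploid ESCs.

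At Sycp3 the order of the intervals differed between libraries. The WT embryo averaged 57.6% in the 150 bases after the start, 72.1% in the next 150 and 75.0% in the 150 after those. Early diploid ESCs had 28.0%, 36.3% and 45.3% in the same intervals. Levels in these libraries were higher farther from the start. BM adult brain had the opposite order, with 59.3%, 52.6% and 41.8%. WT adult brain had neither order over its own cytosines, with 63.1%, 56.9% and 58.2%. The last interval rests on 10 cytosines in BM and 14 in WT adult brain. The BM E19.5 brain, with 82.4%, 84.2% and 79.4%, and the BM embryo, with 77.6%, 79.3% and 77.2%, had neither a rising nor a falling order. BM adult brain lay farthest below the BM E19.5 brain in the last interval.

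**Figure D4:**
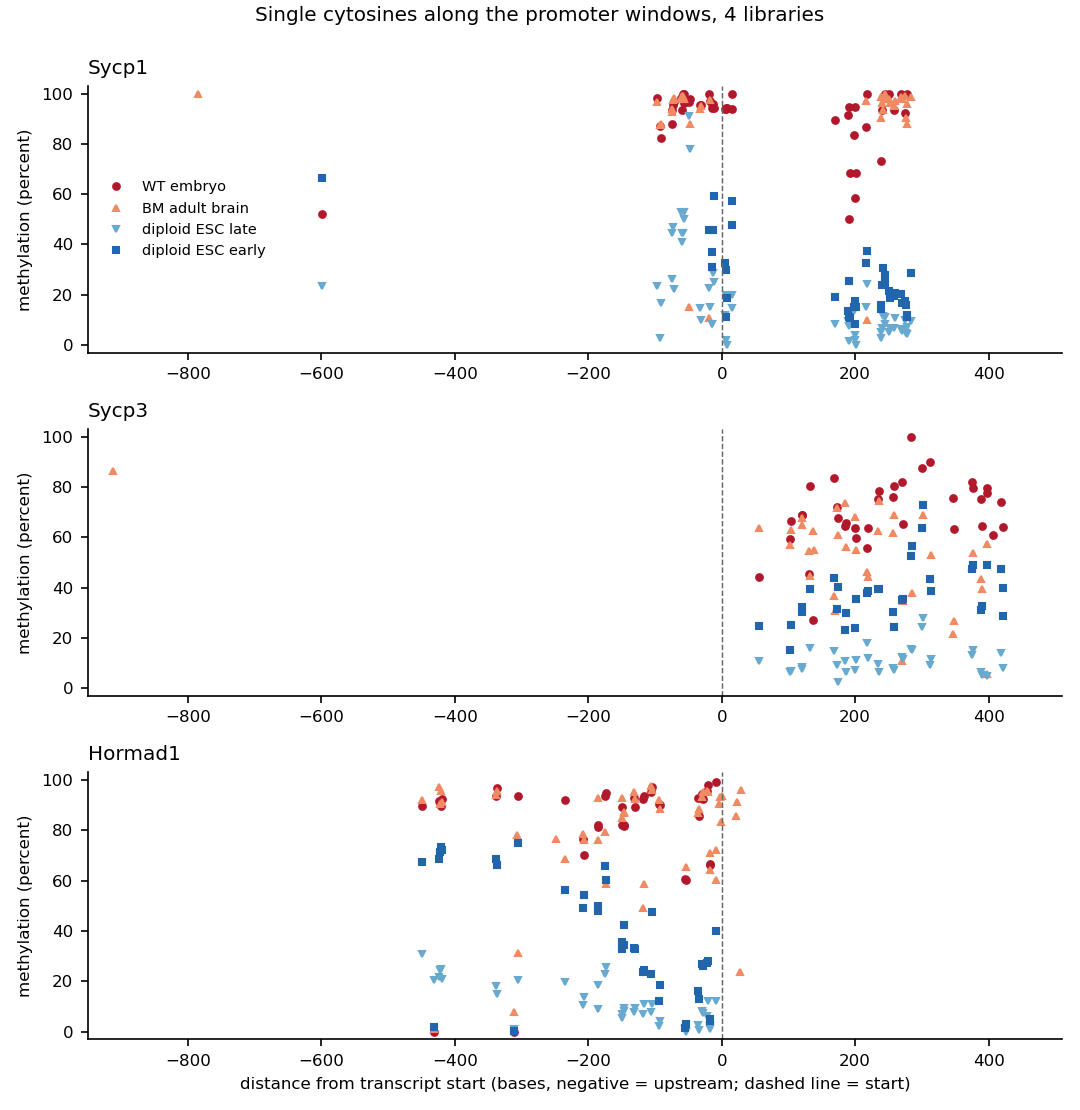
Methylation of single cytosines (vertical axis, percent) against distance from the transcript start in bases (horizontal axis, negative upstream) at Sycp1, Sycp3 and Hormad1 in WT embryo, BM adult brain, late diploid ESCs and early diploid ESCs. At Hormad1 the early diploid points are lower near the start, with a mean of 24.0% in the nearest interval and 56.5% in the far one.

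The other genes of the meiotic programme were taken from lists of 35 names, chosen with earlier results of these data known. Of these, 19 could be placed on mm9 and 9 had at least 6 cytosines in every library. All 9 were higher in tissue than in ESC libraries by the same exact permutation test, each with an adjusted p of 0.00785, against 47.2% of all promoters. Their median difference was 59.9 points, beside 19.48 over all 1215 promoters. Of the 9, 8 exceeded 25 points, beside 32.7% of all 1215 promoters. As at the members, the level filter keeps cytosines that are high in tissue libraries alone. Given that filter and the choice of names, these p values and differences describe these libraries and are not independent support for a trait of meiotic genes.

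Among axis genes, Sycp2, whose product partners SYCP3, averaged 86.9% in tissue and 13.7% in ESC libraries. Hormad2, a paralog of Hormad1, averaged 65.1% in tissue and 5.93% in ESC libraries, and Smc1b, a meiotic cohesin subunit, averaged 52.5% and 15.8%. Msh4, which stabilises crossover intermediates, had the widest difference of the 9, with 84.4% in tissue and 4.47% in ESC libraries. Between 6 and 31 of its 45 cytosines were read per library, with the lowest minimum of the 9, so its means rest on differing positions. Spo11, the enzyme of meiotic double-strand breaks, averaged 89.2% in tissue and 23.8% in ESC libraries. Mei1, also needed for those breaks, was the gene under 25 points, with 26.0% in tissue and 7.38% in ESC libraries. The germ-cell RNA regulators Dazl, Ddx4 and Mael differed by 58.4, 59.9 and 71.0 points.

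With passage, 4 of 11 measured listed genes were called lower in late diploid ESCs and 0 higher, beside 19.3% of all promoters called lower. These were Smc1b, Spo11, Dazl and Syce3, a central element protein. Their own levels were 7.31% in late and 37.7% in early diploid ESCs for Smc1b, 10.1% and 43.6% for Spo11, 17.5% and 44.5% for Dazl, and 11.1% and 57.5% for Syce3. In late ahESCs 0 of 10 were called and in late phESCs 0 of 9. Smc1b was the 1 gene of 11 called lower in early phESCs than in early diploid ESCs, at 8.80% in early phESCs and 37.7% in early diploid ESCs. In the WT embryo against early diploid ESCs, 8 of 10 were called higher, beside 7.28% of all promoters, and Mei1 and Psmc3ip were not. Between BM or BP and WT samples, and between the adult and E19.5 BM brains, 0 were called.

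The promoters most like each member were those with the smallest mean absolute difference from it over the 12 libraries. For Sycp1 these were the shared promoter of Hist1h2aa and Hist1h2ba at 3.69 points, that of 4930467D21Rik and Naa11 at 4.11 and AC102106.2 at 4.13. For Sycp3 they were Cmtm1 at 3.61, Tdrd1 at 4.42 and Lat2 at 4.91 points. For Hormad1 they were Pramel1 at 2.56, 4930555K19Rik at 3.51 and 1700028K03Rik at 3.66 points. No member was among the 3 nearest to another: 7.13 points lay between Sycp1 and Hormad1, 7.15 between Sycp3 and Hormad1 and 13.2 between Sycp1 and Sycp3. Ranked by nearness among the 1215 promoters, Hormad1 was number 30 from Sycp1, and Sycp3 number 101. From Sycp3, Hormad1 was number 14 and Sycp1 number 118. From Hormad1, Sycp1 was number 39 and Sycp3 number 41.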

How the data were processed

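RRBS values of 12 mouse libraries were used, from a table that gives the percent of methylated reads at 8119606 cytosine positions and marks missing values with N. Per the submitters' processing notes, the authors used Trim Galore and Bismark 0.13.1 on mm9; the deposited percentages range from 0 to 100 and carry no coverage, and the filter on reads is not given in the sources used here. The table has no sequence context. Per the labels' protocols, genomic DNA was cut with MspI and sequenced on an Illumina instrument.

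No mm9 genome was used. RefSeq promoter sequences (GRCm38.p6) and GENCODE M21 first exons were placed on mm9 by matching gaps between cytosines to gaps between listed positions. The cytosines were those of CG and GC on both strands, with at least 8 matches and no conversion of coordinates. Of 109100 sequences 32964 were placed (30.2%), against 57 (0.0522%) at a false shift of 2017 bases. Genes with provisional Gm numbers were left out of the background. This placement departs from the plan only in how starts were found. The windows of the 3 members were given beforehand.

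Cytosines at 20% or more in any library were kept. Differences used cytosines with values in both libraries, at least 3 for a member and 6 for the background, and were called at 25 points. Tissue and ESC libraries were compared by an exact two-sided permutation test with Benjamini-Hochberg adjustment over all promoters at 0.05. The test and the call were tried on simulated data with an assumed read depth. The simulation held no effect of library set, genotype or stage and no selection of cytosines by their simulated level, so it does not cover those. The members and lists were chosen with earlier results of these data known. Named are the members, listed genes past 25 points with the highest and lowest, and the 3 promoters nearest to each member. The alternatives were other level filters, other sets of cytosines, the median, CCGG sites left out, strands averaged, a narrower window, library sets and single libraries left out; for the background, 15 points and at least 10 cytosines. Python 3.11.15, NumPy 2.4.6, pandas 2.3.3 and Matplotlib 3.10.9 were used.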

Additional observations from a re-analysis of the deposited data

Results flagged for a closer look

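Some differences had opposite signs in a pair of comparisons of the same kind; with 1 library per group, none of these oppositions was tested. At Sycp3, BM minus WT was 5.13 points in embryos and -4.52 in adult brains. Late ahESCs were above late diploid ESCs by 6.62 points at Sycp3 and 5.57 at Hormad1, while at early passage the same difference was -3.88 and -6.05. Late phESCs were above late diploid ESCs by 5.47 points at Sycp3 and 2.49 at Hormad1, while at early passage the difference was -12.9 and -15.3. All of these are under 25 points, and the late haploid and late diploid libraries belong to different library sets. Among the 6 tissue and the 6 ESC libraries, no level of a member stood apart from its class by Dixon's ratio.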

How the results depend on the processing

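No paired analysis was possible because each group is 1 library, so no groups share 2 replicate numbers; the 3 pairs of late and early passage are given side by side in the report, and no test of them was run. Tissue minus ESC kept its direction and its adjusted call at all 3 members over cytosines at 50%, cytosines read in all 12 libraries, medians, CCGG sites left out, strands averaged, the narrower window and each library left out in turn. Leaving out 1 library gave 68.5 to 72.5 points at Sycp1, 45.1 to 51.6 at Sycp3 and 57.9 to 63.5 at Hormad1. With no level filter it was 40.2 points at Sycp1, 21.7 at Sycp3 and 24.6 at Hormad1, with the same exact permutation p of 0.00216 but an adjusted p of 0.0512 over 12322 promoters. Within the first library set it was 68.3, 51.9 and 57.6 points (exact permutation test, adjusted p = 0.0665), and within the second 76.8, 39.6 and 65.8 (adjusted p = 0.405).

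No called difference reversed its sign; among all 42 differences, at most 4 changed sign under any 1 alternative, each of them uncalled. Dropping the level filter adds positions under 20% in every library, among them positions outside CpG. The embryo minus early diploid differences were then 33.3, 16.5 and 18.3 points at Sycp1, Sycp3 and Hormad1. At Sycp3 the diploid passage difference was -12.5 and the adult minus E19.5 brain difference -13.0, and at Sycp1 the phESC passage difference was -3.62. Over each library's own cytosines, Sycp1 differed by -19.6 points with phESC passage and by -12.8 between late phESCs and late diploid ESCs, and Hormad1 by -12.9 and -2.15 in the same pairs; late phESCs were read at fewer positions. The read depth is unknown, so a difference of a few points cannot be set against counting error.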

Other observations

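The CpGs inside the CACGTG sites of Hormad1 were lower than the rest of its window, a pattern chosen after the values were seen and given with no test. The site at -57 bases had 60.4% in the WT embryo, where the other CpGs averaged 89.1%, and the site at -20 bases had 66.5%, with the others at 88.8%. They were the lowest and second lowest of 19 CpGs there, and also in early diploid ESCs, at 2.19% and 4.62% beside 41.2% and 41.1%. In WT adult brain they had 71.6% and 74.6%, and 5 or more CpGs were lower than each. In the Sycp1 window, the CpG of CACGTG had 84.7% in the WT embryo with the other CpGs at 92.2%, and in the BM embryo 94.0% with the others at 92.9%. Lower CpGs in CACGTG were also seen at other promoters. Among placed promoters whose other CpGs, at least 5, averaged 50% or more, the CACGTG CpG was lower in 8 of 9 in the WT embryo. The median difference there was -24.3 points. It was lower in 8 of 9 in BM E19.5 brain and in 4 of 7 in WT adult brain. In early diploid ESCs, with the others at 20% or more, it was lower in 6 of 6. Hormad1 itself meets these conditions on the other CpGs. Promoters picked for high other CpGs favour a lower value at any CpG left out. No share for CpGs outside CACGTG is given beside these few promoters, so the counts have no baseline. Binding was not measured.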
